A study of Homo sapiens with 10 samples.

Results

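The 79 genes described here are named as genes for histones, the proteins around which nuclear DNA is wound. They comprised 71 clustered genes, whose symbols begin with HIST1H, HIST2H, HIST3H or HIST4H, and 8 replacement genes, H1F0, H1FX, H2AFX, H2AFZ, H2AFV, H2AFY, H3F3A and H3F3B. They were chosen by symbol from the 23234 genes present in all 5 of the study's expression tables, with no use of their values.

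RNA was sequenced from 10 cultures of 3 human lung adenocarcinoma lines, PC9, PC9M and H358. PC9 is labelled as metastasising in general and PC9M as doing so more often to brain and bone. For H358 the labels give metastasis as not tested. In each line a culture with GNF5, an allosteric inhibitor of the ABL kinases, was set against a DMSO culture after 72 h. According to the labels PC9 and H358 received 10 mM GNF5, and PC9M received 20 mM. The unit is as printed there and has no check in the files. In PC9 and PC9M a culture transduced with shRNAs against ABL1 and ABL2 was set against a culture with a scrambled shRNA, both with 8 µg/mL polybrene. The time of harvest after transduction is not given in the labels. Each culture was 1 library and each group 1 culture, so no difference within a table has a replicate check. The purpose of the pairs, from the series' own title, was to find what the ABL kinases do to the transcriptome of these cells.

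The authors gave levels as FPKM, fragments scaled by transcript length and by the number of mapped fragments, so that genes can be compared per length. Each table was normalised separately, so levels set across tables carry that reservation. Between 11268 and 12773 genes reached 1 FPKM in a library. Summed epithelial markers ranged from 2560 to 12983 FPKM, leukocyte markers from 0.590 to 3.32 FPKM and fibroblast markers from 1.29 to 13.1 FPKM. Endothelial markers summed to between 2.34 and 31.6 FPKM, with PECAM1 at 23.2 FPKM in PC9 with DMSO. The lung lineage factor NKX2-1 was at 92.1 and 46.3 FPKM in H358 and was at most 0.0206 FPKM in PC9 or PC9M. With the shRNAs the log2 ratio of ABL1 was -2.38 in PC9 and -1.33 in PC9M, and that of ABL2 was -1.63 and -0.63.

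Chromatin is built from the core histones H2A, H2B, H3 and H4, with the linker histone H1 on the DNA between particles. Clustered genes are mainly the replication-dependent histone genes. Most have no introns, are read mostly in S phase, and give mRNAs that typically end just after a short stem-loop instead of in a poly(A) tail. The stem-loop binding protein SLBP holds that hairpin while the U7 snRNP directs the cut. Most replacement genes are read throughout the cell cycle and give polyadenylated mRNAs. They supply variants such as H2A.Z and H3.3 that are deposited outside replication. Some clustered genes also give longer, polyadenylated mRNAs, which are known from differentiated cells. The labels do not state whether poly(A) RNA was selected, and that step sets how much of a stem-loop mRNA a library can hold.

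The hairpin was looked for in the GENCODE v29 transcripts of every member as a stem of 6 base pairs around a loop of 4 bases. The stem had to begin with GG and pair perfectly, and the loop had to begin with TT. A hairpin of this form was found in transcripts of 28 of the 71 clustered genes and, of the 8 replacement genes, in H2AFX. The share of all genes with such a hairpin was not counted, so these counts have no background beside them. In 10 of the 28 a transcript ended within 60 bases after the hairpin, and in 19 one ran more than 150 bases past it. A hairpin not found is not shown to be absent, since an annotated transcript may stop before it. Among the genes without a match, for example, HIST1H4A had a single transcript of 312 bases and HIST1H2BK one of 381. The 6 hairpins shown belong to genes whose levels are described below. They are given as DNA, 5′ to 3′, with the 16 bases of stem and loop in capitals.
HIST1H2AC: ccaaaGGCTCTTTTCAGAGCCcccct
HIST2H2BE: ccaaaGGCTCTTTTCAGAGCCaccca
HIST3H2A: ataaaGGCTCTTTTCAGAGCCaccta
HIST1H4H: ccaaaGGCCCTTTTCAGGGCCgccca
HIST2H4B: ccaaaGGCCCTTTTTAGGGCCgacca
H2AFX: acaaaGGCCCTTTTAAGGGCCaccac
The hairpin of HIST1H2AC, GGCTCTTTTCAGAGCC, was shared letter for letter by 16 clustered genes of the H2A, H2B and H3 classes. Those of HIST1H4H and HIST2H4B belonged to H4 genes, 5 with the former and 2 with the latter. The 4 transcripts of HIST1H4H ran between 18 and 1655 bases past the hairpin. That of HIST2H2BE ran on for 1729 bases, and those of HIST1H2AC for 1114 to 1128.

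Promoters were compared over windows of 250 bases before to 50 after each RefSeq start, available for 59 of the 79 genes on GRCh38.p14. The motif CCAAT, on either strand, was in 45 of 54 clustered windows, or 83.3%, beside 34.6% of all 35116 RefSeq windows. TATAAA was in 36 of the 54, or 66.7%, beside 11.5%. The octamer ATGCAAAT was in 19 of the 54, or 35.2%, beside 1.8%. By class the octamer was in 11 of 15 H2A and 8 of 11 H2B windows and in none of the windows of clustered H1, H3 and H4 genes. Windows of neighbouring H2A and H2B genes often overlapped, as for HIST1H2AA and HIST1H2BA. The same stretch of DNA can thus count for both classes, and the windows are not independent. Of the 5 replacement windows CCAAT was in 4, TATAAA in 4 and the octamer in 1, that of H3F3B. CCAAT was in every clustered H1, H2A, H2B and H3 window but in 3 of 12 H4 windows. A match of letters describes the window and is not a binding site.

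Windows of 3 genes are printed because these genes gave the GNF5 ratios described below, or, for HIST1H2AC, the clustered level next to the highest in PC9 with DMSO. The 3 motifs are in capitals on either strand, so that CCAAT also appears as its reverse complement. HIST2H2BE lies at chr1:149886633-149886932 on the minus strand, HIST3H2A at chr1:228457824-228458123 on the minus strand and HIST1H2AC at chr6:26123922-26124221 on the plus strand, all on GRCh38.p14 from RefSeq.
HIST2H2BE: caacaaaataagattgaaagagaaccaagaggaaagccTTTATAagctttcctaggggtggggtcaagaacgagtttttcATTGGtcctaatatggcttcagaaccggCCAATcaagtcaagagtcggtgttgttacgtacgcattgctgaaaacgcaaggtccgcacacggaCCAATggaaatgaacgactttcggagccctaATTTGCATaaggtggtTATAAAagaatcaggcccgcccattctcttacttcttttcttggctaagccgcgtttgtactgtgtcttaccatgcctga
HIST3H2A: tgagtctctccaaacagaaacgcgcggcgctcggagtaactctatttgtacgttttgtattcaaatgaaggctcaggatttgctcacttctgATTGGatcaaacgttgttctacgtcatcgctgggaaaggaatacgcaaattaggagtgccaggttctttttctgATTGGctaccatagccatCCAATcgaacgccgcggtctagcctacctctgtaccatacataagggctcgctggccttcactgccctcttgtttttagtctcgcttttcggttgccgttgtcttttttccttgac
HIST1H2AC: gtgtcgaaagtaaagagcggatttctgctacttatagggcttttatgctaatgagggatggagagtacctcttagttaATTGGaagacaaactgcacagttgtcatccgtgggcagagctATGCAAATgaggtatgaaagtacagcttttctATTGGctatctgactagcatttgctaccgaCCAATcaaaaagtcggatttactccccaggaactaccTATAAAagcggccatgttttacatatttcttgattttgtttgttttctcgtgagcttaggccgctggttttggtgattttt
HIST2H2BE and HIST1H2AC held all 3 motifs, while HIST3H2A held CCAAT but neither TATAAA nor the octamer. The window of HIST2H2BE shared 265 bases with that of HIST2H2AC, an H2A gene read from the opposite strand. The ratios of this divergent pair, HIST2H2BE first, were 1.74 and 0.65 with GNF5 in PC9, 0.79 and -0.04 in PC9M and -0.26 and -0.40 in H358. With the shRNAs they were 0.65 and 0.00331 in PC9 and -0.38 and 0.21 in PC9M, so the signs differed in 2 of 5 tables.

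Most clustered genes were near the floor of the tables, and replacement genes were far above them. The median clustered gene was between 0.174 FPKM, in PC9 with the shRNAs, and 1.63 FPKM, in PC9M with the shRNAs. The median replacement gene was between 43.5 and 107 FPKM. Of the 71 clustered genes 15 reached 1 FPKM in either library of all 5 tables, 56 did so in at least 1 table and 15 in none. HIST1H4G was listed at 0 in all 10 libraries. All 8 replacement genes passed in at least 1 table and 7 in all 5, the exception being H3F3A.

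A single H2B gene made up much of the clustered level. HIST1H2BK was the highest clustered gene in every library, at 132 and 140 FPKM in PC9 with DMSO and GNF5, at 91.3 and 78.4 in PC9M, and at 178 and 153 in H358. In the shRNA tables it was at 176 FPKM with the scrambled shRNA and 112 with the ABL shRNAs in PC9, and at 74.2 and 62.0 in PC9M. It held between 22.7% of the summed clustered FPKM, in H358 with GNF5, and 67.0%, in PC9 with the scrambled shRNA. In the authors' annotation HIST1H2BK shares a locus with HIST1H4I, an H4 gene, and many clustered genes have near-identical coding sequences, so reads may be split between copies. HIST2H3A and HIST2H3C had identical rows in all 5 tables.

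H358 stood above the PC9 and PC9M libraries. The clustered sum was 744 and 672 FPKM in H358, whereas it lay between 171 and 292 FPKM in the other 8 libraries, without overlap. HIST1H1C, which encodes the linker histone H1.2, was at 75.9 and 70.2 FPKM in H358 and between 4.96 and 17.4 elsewhere. HIST2H2BE, an H2B gene, was at 64.8 and 53.9 FPKM in H358 and between 0.788 and 14.2 elsewhere. HIST2H2AA3, an H2A gene with an identical neighbouring copy in the genome, was at 76.5 and 68.3 FPKM in H358 and between 4.64 and 17.4 elsewhere. HIST2H4B, an H4 gene that also has an identical copy, was at 41.1 and 30.1 FPKM in H358 and between 0.292 and 4.90 elsewhere. HIST1H2BA, which encodes the testis-specific H2B, was at 12.7 and 6.38 FPKM in H358 and listed at 0 in the other 8 libraries. For these 5 genes the H358 libraries did not overlap the others. The share of all genes that separate the libraries in this way was not counted. The separation is therefore not read as a trait of histone genes. HIST1H2BK did overlap, since its 153 and 178 FPKM in H358 lay on either side of the 176 FPKM of PC9 with the scrambled shRNA. Those levels are a description of 2 libraries of 1 line.

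**Figure D1:**
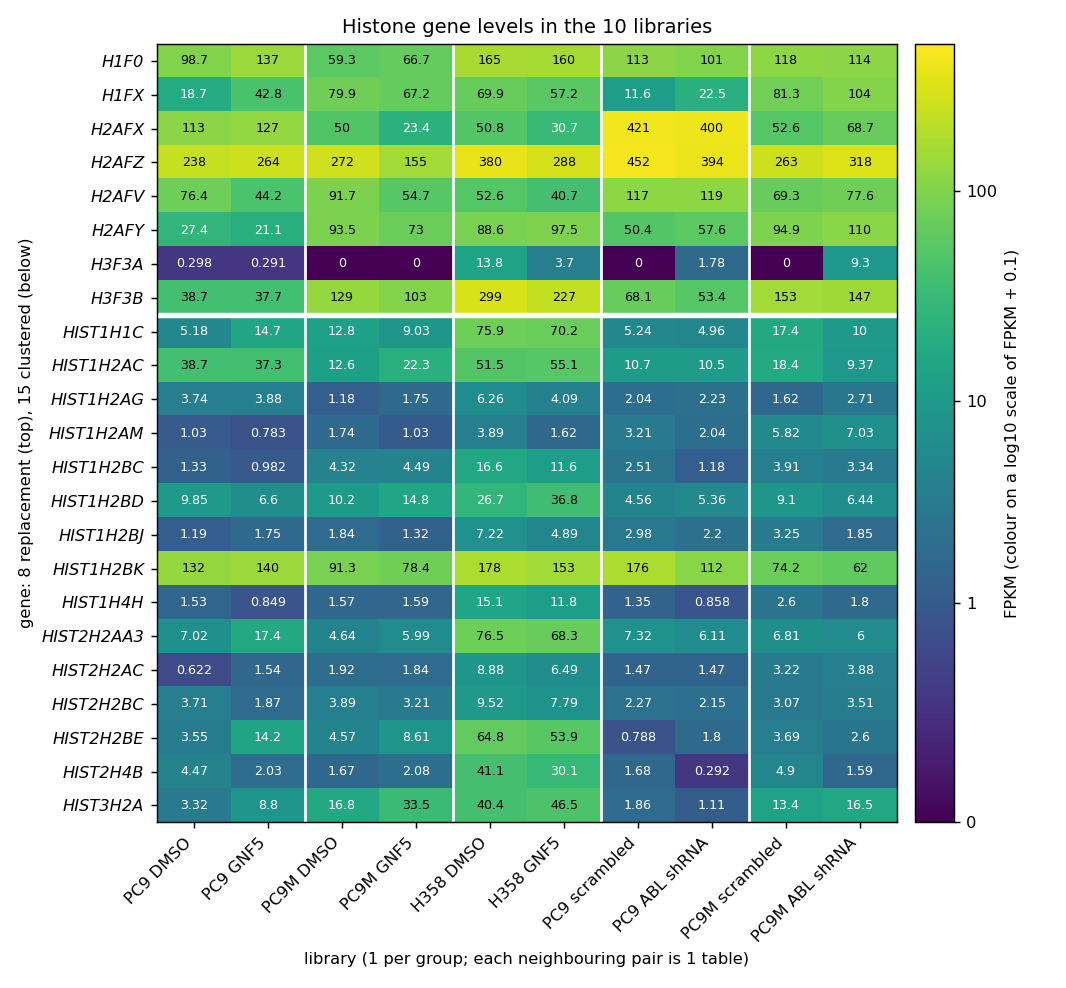
FPKM of the 8 replacement genes (top) and the 15 clustered genes that reached 1 FPKM in either library of all 5 tables (below) in each of the 10 libraries, with colour on a log10 scale and the value printed in each cell. HIST1H2BK is the highest clustered gene in every column, and H3F3A is listed at 0 in 4 libraries.

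Genes with a long annotated transcript were the better detected ones. Among the 32 clustered genes whose longest GENCODE transcript exceeded 550 bases the median level was 1.26 FPKM in PC9 with DMSO, 0.875 in PC9M with DMSO and 2.85 in H358 with DMSO. Among the 39 with none over 550 bases it was 0.123, 0.323 and 0.384 FPKM. The longer group had the higher median in all 10 libraries. HIST1H2BK was an exception, being the highest of all yet in the shorter group, with a single GENCODE transcript of 381 bases. In the authors' annotation the locus it shares with HIST1H4I spans 8566 bases, so its place in that group rests on the GENCODE model. The annotation behind the authors' lengths is not given in the sources used here, and its part in these levels was not tested.

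One stretch of the HIST1 cluster on chromosome 6 was at or near 0 in H358 and partly detected in PC9 and PC9M. In genomic order 14 consecutive genes, from HIST1H2AD and HIST1H3D to HIST1H2BI at chr6:26304991-26381619 on hg18, were each under 0.25 FPKM in both H358 libraries, with a highest value of 0.121 FPKM. Their sum was 0.137 FPKM with DMSO and 0.573 with GNF5. The same 14 genes summed to between 8.27 and 18.8 FPKM in the PC9 and PC9M libraries, where 2 to 7 of them reached 1 FPKM. HIST1H3E, for example, was at 2.18 and 2.25 FPKM in PC9 with DMSO and GNF5 and at 3.52 and 5.27 in PC9M, and was listed at 0 in both H358 libraries. HIST1H2BG, an H2B gene, was at 1.15 and 3.30 FPKM in PC9 with DMSO and GNF5, and at 0 and 0.07 in H358.

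Outside that stretch 25 and 24 of the 42 other HIST1 genes reached 1 FPKM in H358 with DMSO and GNF5. Their median was 1.48 and 1.46 FPKM, and their sum of 461 and 415 FPKM rested largely on HIST1H2BK, HIST1H1C and HIST1H2AC. Next to the stretch HIST1H4D was at 0.393 and 0.449 FPKM on one side and HIST1H4H at 15.1 and 11.8 FPKM on the other. Under the same limit the longest run in the other tables was 4 or 5 genes. The limit was set after the values were seen, no test was made, and DNA copy number was not measured.

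**Figure D2:**
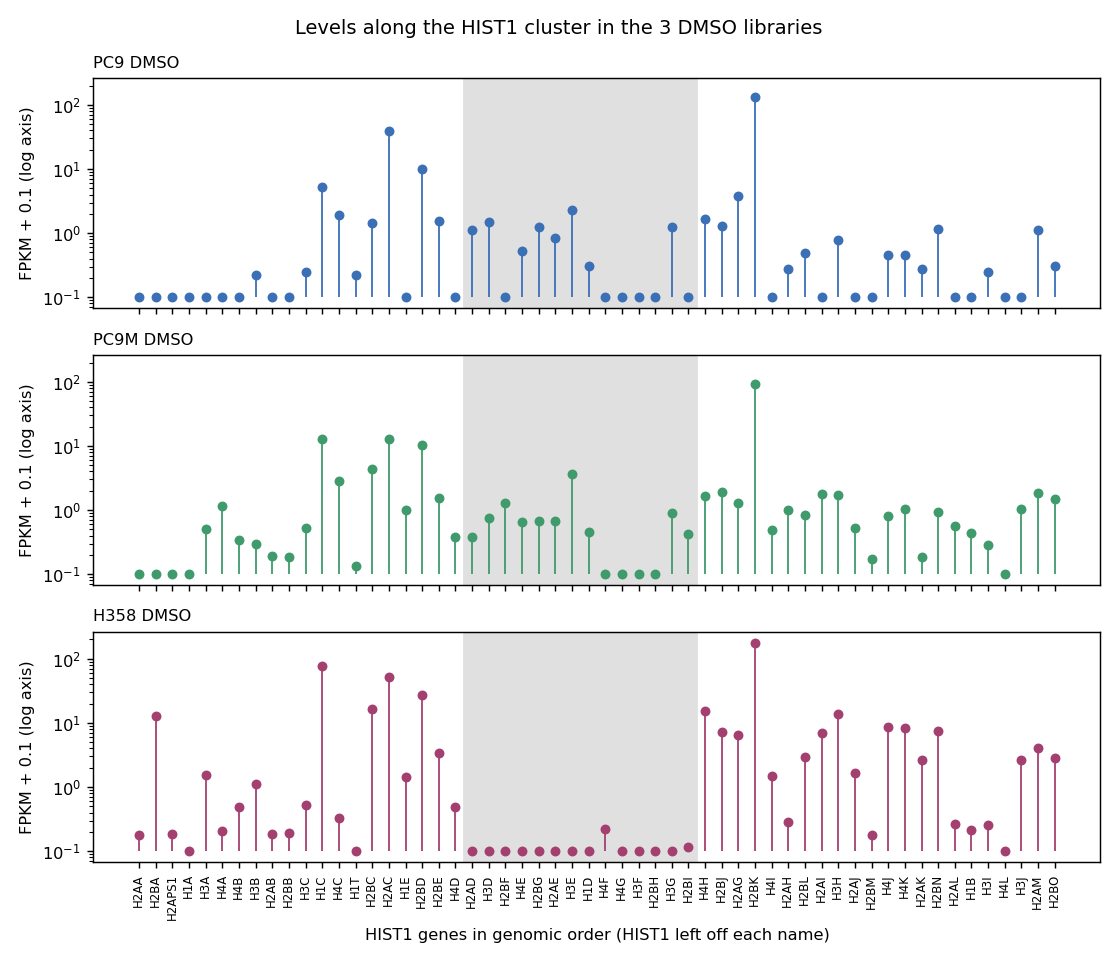
FPKM plus 0.1 (log axis) of the 56 HIST1 genes in genomic order with DMSO, for PC9, PC9M and H358, with the 14-gene stretch shaded. In H358 the shaded genes do not exceed 0.121 FPKM, while PC9 and PC9M have several near or above 1 FPKM there.

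The 5 comparisons ask how these genes differ when ABL kinase activity or ABL1 and ABL2 themselves are reduced. A ratio is log2((treated FPKM + 1)/(control FPKM + 1)), which understates the change of low genes, and it was counted for genes with at least 1 FPKM in either library. Where a gene reached 1 FPKM in only the treated or only the control library, that limit fixes its direction. A gene at least 2-fold apart has a ratio of 1 or more in size. In such bulk RNA, fewer cells that express a gene and less of its RNA per cell cannot be told apart. With GNF5 over DMSO the median ratio of all genes was -0.10 in PC9, -0.06 in PC9M and -0.19 in H358. With the shRNAs over the scrambled control it was -0.09 in PC9 and -0.01 in PC9M.

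In PC9 with GNF5, clustered genes at least 2-fold apart were all on the higher side. Of 32 that passed, 8 lay above 2-fold and 0 below it. In all 18 were above and 14 below 0, with a median of 0.06. Among all 12004 genes that passed, 5.17% were on the higher side of 2-fold and 6.83% on the lower. The clustered counts rest on the 1 added to each FPKM. With 0.1 added, 11 clustered genes lay above 2-fold and 4 below it, and with 5 added 1 and 0. HIST2H2BE was at 3.55 FPKM with DMSO and 14.2 with GNF5, a ratio of 1.74. HIST1H4C, an H4 gene, was at 1.84 and 7.16 FPKM, a ratio of 1.52. HIST1H1C was at 5.18 and 14.7 FPKM, a ratio of 1.34. These were an H2B, an H4 and a linker histone gene, so the higher values were not of a single class.

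HIST1H2AE, an H2A gene, was at 0.739 and 3.13 FPKM, a ratio of 1.25. HIST2H2AA3 was at 7.02 and 17.4 FPKM, a ratio of 1.20. HIST3H2A, an H2A gene outside the main clusters, was at 3.32 and 8.80 FPKM, a ratio of 1.18. The others were HIST1H4I, listed at 0 with DMSO and at 1.06 FPKM with GNF5, and HIST2H2BA, at 1.83 and 4.69 FPKM. HIST1H2AE and HIST1H4I passed through the GNF5 library alone, which fixes their direction. The highest gene was not among those at least 2-fold higher, since HIST1H2BK was at 132 and 140 FPKM, a ratio of 0.08. Nor was HIST1H2AC, at 38.7 and 37.3 FPKM, a ratio of -0.05. At the lower end HIST2H4B was at 4.47 and 2.03 FPKM, a ratio of -0.85. Of the 8 clustered genes that reached 5 FPKM in either library, 5 were at least 2-fold higher and the median was 1.19. HIST1H4C, HIST2H2BE and HIST3H2A reached 5 FPKM with GNF5 alone, which fixes their direction. The share of all genes at this limit was not counted. Without HIST1H2BK the clustered sum was 110 FPKM with DMSO and 152 with GNF5.

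In PC9M and H358 with GNF5 the median clustered gene was close to its control. In PC9M 26 passed, 15 above and 11 below 0, with a median of 0.03. Of these 0 were at least 2-fold higher and 1 lower, beside 1.58% and 1.81% of all 12370 genes. The lower gene was HIST1H4C, at 2.78 FPKM with DMSO and 0.652 with GNF5, a ratio of -1.20, which is opposite in sign to PC9. The highest ratio was that of HIST3H2A, at 16.8 and 33.5 FPKM, or 0.95. HIST2H2BE was at 4.57 and 8.61 FPKM, a ratio of 0.79, and HIST1H2AC at 12.6 and 22.3 FPKM, a ratio of 0.78. The 8 clustered genes that reached 5 FPKM in either PC9M library had a median of 0.48. Some of them, such as HIST2H2BE, reached it with GNF5 alone, which fixes their direction.

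In H358 39 clustered genes passed, 11 above and 28 below 0, with a median of -0.16. That is 71.8% below 0, near the 74.5% of all genes. None was at least 2-fold apart, beside 1.12% of all 12951 genes higher and 2.40% lower. HIST3H2A was at 40.4 and 46.5 FPKM, a ratio of 0.20, and HIST2H2BE at 64.8 and 53.9 FPKM, a ratio of -0.26. The 6 H4 genes that passed had ratios between -0.58 and -0.02. HIST1H2AM, an H2A gene, was at 3.89 and 1.62 FPKM, a ratio of -0.90.

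Several of the steadily detected H2B and H2A genes differed in direction between lines. HIST1H2BD, an H2B gene, was at 9.85 and 6.60 FPKM in PC9 with DMSO and GNF5, at 10.2 and 14.8 in PC9M and at 26.7 and 36.8 in H358, with ratios of -0.51, 0.50 and 0.45. HIST1H2AG, an H2A gene, was at 3.74 and 3.88 FPKM in PC9, at 1.18 and 1.75 in PC9M and at 6.26 and 4.09 in H358. HIST2H2BC, an H2B-like locus of the HIST2 cluster, was below its control in each line, at 3.71 and 1.87 FPKM in PC9, 3.89 and 3.21 in PC9M and 9.52 and 7.79 in H358. HIST1H2BC, HIST1H2BJ, HIST1H4H, HIST2H2AC and HIST1H2AM ranged from 0.622 to 16.6 FPKM over the 6 libraries, with ratios between -0.90 and 0.65.

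**Figure D3:**
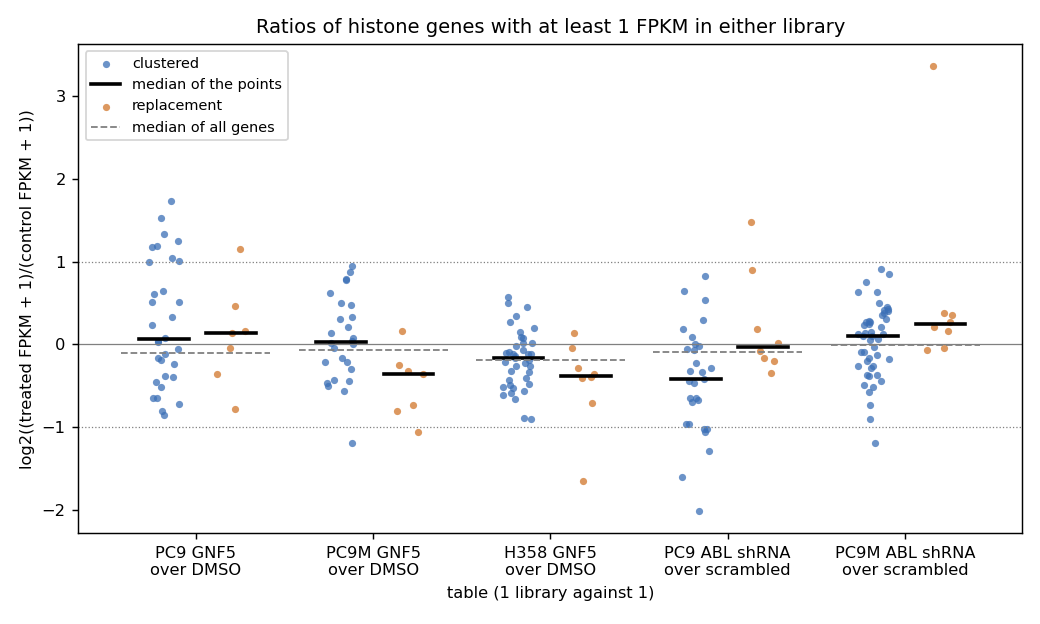
Ratios of the clustered (blue) and replacement (orange) genes with at least 1 FPKM in either library in each of the 5 tables, with their medians (black bars), the median of all genes (dashed) and lines at 2-fold (dotted). The 8 clustered genes at least 2-fold higher in PC9 with GNF5 and the 6 lower by 2-fold or more with the PC9 shRNAs stand outside the dotted lines.

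Of the replacement genes H2AFX, H2AFZ and H2AFV, which encode H2A variants, were lower with GNF5 in PC9M and H358. H2AFX encodes H2A.X, which is phosphorylated at DNA breaks. It was at 49.97 FPKM with DMSO and 23.4 with GNF5 in PC9M, a ratio of -1.06, and at 50.8 and 30.7 in H358, a ratio of -0.71. In PC9 it was at 113 and 127 FPKM, a ratio of 0.16.

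H2AFZ, which encodes the promoter-associated variant H2A.Z, was the highest replacement gene in 9 of the 10 libraries and followed the same pattern. It was at 272 and 155 FPKM in PC9M, a ratio of -0.81, at 380 and 288 in H358, a ratio of -0.40, and at 238 and 264 in PC9, a ratio of 0.14. H2AFV, which encodes a second H2A.Z protein, was lower with GNF5 in all 3 lines. It was at 76.4 and 44.2 FPKM in PC9, at 91.7 and 54.7 in PC9M and at 52.6 and 40.7 in H358, with ratios of -0.78, -0.73 and -0.36. The 3 libraries with GNF5 thus each lay below their own control for H2AFV.

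H2AFY, which encodes macroH2A, was at 27.4 and 21.1 FPKM in PC9, at 93.5 and 73.0 in PC9M and at 88.6 and 97.5 in H358. Its ratios were -0.36, -0.35 and 0.14. H1F0 encodes the linker histone H1.0 of resting and differentiated cells, and was at 98.7 and 137 FPKM in PC9, at 59.3 and 66.7 in PC9M and at 165 and 160 in H358. H1FX, another linker histone, was at 18.7 and 42.8 FPKM in PC9, a ratio of 1.16, whereas in PC9M it was at 79.9 and 67.2 FPKM and in H358 at 69.9 and 57.2. H1FX was the only replacement gene at least 2-fold higher with GNF5 in any of the 3 lines.

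H3F3A and H3F3B encode the same H3.3 protein, and only H3F3B was detected in every library. H3F3B was at 38.7 and 37.7 FPKM in PC9 with DMSO and GNF5, at 129 and 103 in PC9M and at 299 and 227 in H358. H3F3A was at 0.298 and 0.291 FPKM in PC9, listed at 0 in both PC9M libraries, and at 13.8 and 3.70 in H358. With the shRNAs it was listed at 0 with the scrambled shRNA in both lines, and at 1.78 FPKM in PC9 and 9.30 in PC9M with the ABL shRNAs. H3F3A is a broadly expressed gene with many processed copies in the genome, so a listed 0 may be a failed estimate. It is kept as a member in the medians, in the counts of direction and in the limma fit. No change of H3F3A is read from its ratios. Without H3F3A 7 replacement genes passed with GNF5 in each line. In PC9 4 were above and 3 below 0, and in PC9M and H358 1 was above and 6 below. Of all genes 57.0%, 57.7% and 74.5% were below 0 in PC9, PC9M and H358.

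With the ABL shRNAs in PC9 clustered genes were mostly below the scrambled control. Of 29 that passed 7 were above and 22 below 0, or 75.9% below beside 62.3% of all genes, with a median of -0.42. At least 2-fold lower were 6, and 0 were higher, beside 1.92% and 1.21% of all 11861 genes. With ratios centred on the table's median the 6 became 3. With 0.1 in place of 1 added to each FPKM, 11 were lower and 3 higher, and with 5 added 0 and 0. Summed over all 14 clustered H4 genes, with no filter on level, the level was 16.3 FPKM with the scrambled shRNA and 3.67 with the ABL shRNAs. Of the 14 genes 8 were lower, 0 were higher and 6 were listed at 0 in both libraries. The log2 ratio of the class sums was -2.15 for H4 and between -0.63 and -0.16 for the other classes. HIST1H4A was at 3.04 FPKM with the scrambled shRNA and listed at 0 with the ABL shRNAs. HIST1H4C was at 7.64 and 2.52 FPKM, a ratio of -1.29. HIST2H4B was at 1.68 and 0.292 FPKM, a ratio of -1.05. HIST4H4 was at 1.03 FPKM and then at 0. Of the 5 H4 genes that passed, HIST1H4A, HIST1H4H, HIST2H4B and HIST4H4 did so through the scrambled library alone, which fixes their direction.

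The other 2 at least 2-fold lower were H2A genes. HIST2H2AB was at 3.03 and 0.325 FPKM, a ratio of -1.60, and HIST1H2AD at 1.47 and 0.212 FPKM, a ratio of -1.03. Both passed through the scrambled library alone, which fixes their direction. HIST1H2BK was at 176 and 112 FPKM, a ratio of -0.65. Not all genes were lower, since HIST1H3E was at 1.43 and 3.30 FPKM, a ratio of 0.82, and HIST2H2BE at 0.788 and 1.80 FPKM, a ratio of 0.65. Apart from HIST1H4C and HIST1H2BK the values named here did not exceed 3.30 FPKM.

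In PC9M the shRNAs left clustered genes nearer to their control. Of 47 that passed 27 were above and 20 below 0, with a median of 0.10. At least 2-fold lower was 1 gene and 0 were higher, beside 0.808% and 1.01% of all 12126 genes. That gene was HIST2H4B, at 4.90 FPKM with the scrambled shRNA and 1.59 with the ABL shRNAs, a ratio of -1.19. HIST1H2AC was at 18.4 and 9.37 FPKM, a ratio of -0.91, and HIST1H1C at 17.4 and 10.0 FPKM, a ratio of -0.73. On the other side HIST1H3C, an H3 gene, was at 0.946 and 2.67 FPKM, a ratio of 0.91. HIST1H4A, which was listed at 0 with the ABL shRNAs in PC9, was at 1.10 and 2.80 FPKM here, a ratio of 0.85. The clustered H4 sum was 19.9 and 20.4 FPKM.

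The replacement genes other than H3F3A were less than 2-fold apart with the shRNAs in both lines. H2AFX was at 421 and 400 FPKM in PC9 and at 52.6 and 68.7 in PC9M. H2AFZ was at 452 and 394 FPKM in PC9 and at 263 and 318 in PC9M. H2AFV was at 117 and 119 FPKM in PC9, a ratio of 0.02, and at 69.3 and 77.6 in PC9M, a ratio of 0.16. H1FX was at 11.6 and 22.5 FPKM in PC9, a ratio of 0.90, and at 81.3 and 104 in PC9M, a ratio of 0.36. H2AFY was at 50.4 and 57.6 FPKM in PC9 and at 94.9 and 110 in PC9M, a pair whose test the authors' deposited table marks as failed. H1F0 was at 113 and 101 FPKM in PC9 and at 118 and 114 in PC9M. H3F3B was at 68.1 and 53.4 FPKM in PC9 and at 153 and 147 in PC9M.

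**Figure D4:**
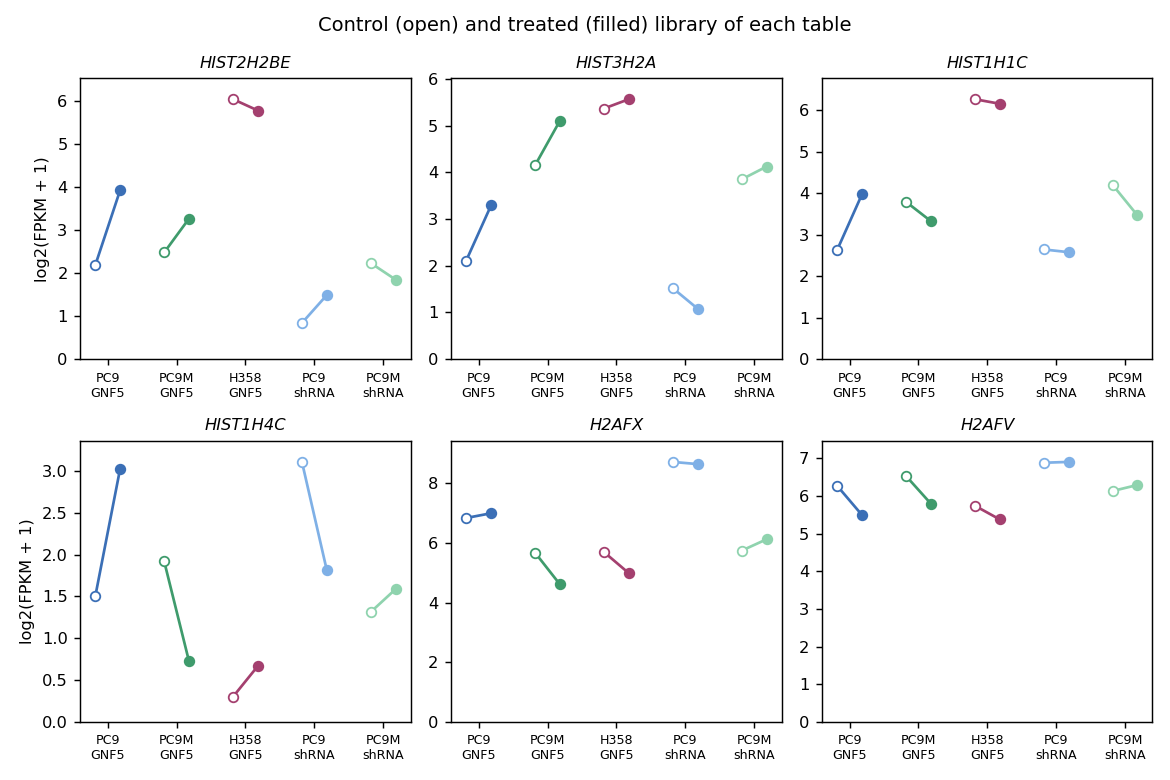
log2(FPKM + 1) of 4 clustered and 2 replacement genes in the control (open) and treated (filled) library of each of the 5 tables, with a line joining the 2 libraries of a table. HIST3H2A is higher and H2AFV lower in all 3 GNF5 libraries than in their DMSO controls, while HIST1H4C changes sides between tables.

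With GNF5 few clustered genes had the same direction in all lines. Of 18 clustered genes that passed in all 3 GNF5 tables, 1 was higher in each, HIST3H2A, and 3 were lower in each, HIST1H2AM, HIST1H2BE and HIST2H2BC. Of 10655 genes that passed in all 3, 9.18% were higher and 31.0% lower in each. For the clustered genes the shares were 5.56% and 16.7%. With the shRNAs 25 clustered genes passed in both lines, 3 were higher and 8 lower in both, or 12.0% and 32.0%, beside 24.9% and 40.0% of the 11146 genes that passed in both. Those lower in both lines were HIST1H1C, HIST1H2AC, HIST1H2BC, HIST1H2BJ, HIST1H2BK, HIST1H4H, HIST2H2AA3 and HIST2H4B. Of 7 replacement genes that passed with GNF5 in all 3 lines, H2AFV and H3F3B were lower in each and 0 were higher in each. With the shRNAs H1FX, H2AFV and H2AFY were higher in both lines, as was H3F3A from a listed 0, and H1F0 and H3F3B were lower. Neighbouring H2A and H2B genes less than 1000 bases apart formed 11 pairs. Where both passed, their ratios had the same sign in 4 of 5 pairs in PC9, 1 of 5 in PC9M and 6 of 8 in H358 with GNF5, and in 3 of 5 and 3 of 7 with the shRNAs.

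To set the lines beside each other, limma was run on the 5 ratios with the perturbation as the factor and 13885 genes, of which 53 were clustered and 8 replacement genes. Here the lines are the replicates, 3 for GNF5 and 2 for the shRNAs. No histone gene passed an adjusted p of 0.05 (limma, Benjamini-Hochberg) in any of the 3 contrasts. The share of all genes that passed was 0.00720% with GNF5, 0% with the shRNAs and 0% for their difference, GNF5 minus shRNA. At an unadjusted p under 0.05 (limma) there were 5 histone genes with GNF5, 3 with the shRNAs and 2 in the difference. Of all genes 17.0%, 4.29% and 8.19% were under it. The share of the histone genes tested was below that of all genes with GNF5 and in the difference, and close to it with the shRNAs.

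For GNF5 the lowest p-value was that of H2AFV, with a mean log2 ratio of -0.62 (SE 0.13, limma unadjusted p = 0.00316, adjusted p = 0.242), lower in 3 of 3 lines. HIST3H2A followed at 0.78 (SE 0.24, limma unadjusted p = 0.0180, adjusted p = 0.262), higher in 3 of 3. The other 3 were HIST1H2BL at -0.29, HIST2H2BC at -0.40 and HIST1H2AM at -0.51, all of the H2B or H2A class by symbol. For the shRNAs HIST2H4B was at -1.12 (SE 0.26, limma unadjusted p = 0.00589, adjusted p = 0.902), lower in 2 of 2 lines. HIST1H2BK was at -0.45 (SE 0.17, limma unadjusted p = 0.0362, adjusted p = 1), also lower in both, and H3F3A was the remaining gene. The difference between the 2 perturbations for H2AFV was -0.72 (SE 0.20, limma unadjusted p = 0.0134, adjusted p = 0.551), and H3F3A was the other gene. With the line as a block, which leaves 1 residual degree of freedom, 5 histone genes in place of 2 were under an unadjusted p of 0.05 for the difference and 0 passed the adjustment (limma, lowest adjusted p = 0.820). In the authors' deposited table for each pair no histone gene was marked significant. Of all 23234 genes the authors' deposited tables marked 0.159% for GNF5 in PC9, 0.301% for PC9M and 0.461% for H358. For the shRNAs they marked 0.435% in PC9 and 0.572% in PC9M, so 0 of 79 is near the background. The lowest q-value in the authors' deposited tables was 0.175, for HIST2H4B with the shRNAs in PC9M, followed by 0.255 for HIST2H2BE with GNF5 in PC9.

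Genes that work beside the histones were read from 3 lists. The replication genes of S phase, a list of 20 of which 19 were measured, had a median ratio of -1.21 with GNF5 in PC9M and -1.02 in H358, where the clustered medians were 0.03 and -0.16. In both lines 19 of 19 were below 0, with 15 and 10 of them at least 2-fold lower. In PC9 it was 0.13, with 10 above and 9 below 0. PCNA, the sliding clamp of DNA polymerase, was at 239 and 103 FPKM in PC9M and at 74.3 and 36.2 in H358, but at 35.5 and 32.3 in PC9. E2F1, a transcription factor of S phase entry, was at 17.0 and 7.56 FPKM in PC9M, at 7.69 and 2.02 in H358, and at 12.7 and 23.2 in PC9. With the shRNAs the S phase median was -0.03 in PC9 and 0.12 in PC9M. The replacement medians, 0.14 in PC9, -0.35 in PC9M and -0.38 in H358 with GNF5, or -0.36 in H358 without H3F3A, took the signs of the S phase medians, and the part of cell cycle phase in them was not tested.

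Histone chaperones, which escort histones to DNA, had medians with GNF5 of -0.27 in PC9, -0.55 in PC9M and -0.39 in H358, and of -0.16 and 0.15 in the shRNA tables of PC9 and PC9M. All 21 passed in each table, and 15, 19 and 19 were below 0 with GNF5 in PC9, PC9M and H358, or 71.4%, 90.5% and 90.5%, beside the 57.0%, 57.7% and 74.5% of all genes. ASF1B, a chaperone of H3 and H4, was at 38.5 and 14.4 FPKM in PC9M with DMSO and GNF5, a ratio of -1.36. NASP, which stores H3 and H4, was at 37.6 and 18.2 FPKM in PC9M and at 46.8 and 22.0 in H358. HAT1, which acetylates new H4, had a ratio of -1.27 in PC9.

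Factors that transcribe and process histone mRNA had GNF5 medians of -0.16 in PC9, -0.40 in PC9M and -0.24 in H358. Their shRNA medians were -0.36 in PC9 and -0.07 in PC9M. In H358 all 14 were below 0, beside 74.5% of all genes, and in PC9M 13 of 14, beside 57.7%. SLBP, which binds the hairpins shown above, was at 43.6 and 23.5 FPKM in PC9M, a ratio of -0.87, at 59.0 and 50.9 in H358, a ratio of -0.21, and at 35.5 and 43.0 in PC9, a ratio of 0.27. CCNE2, an E-type cyclin whose kinase phosphorylates NPAT at S phase entry, was at 14.2 and 4.45 FPKM in PC9M and at 4.44 and 1.23 in H358, ratios of -1.48 and -1.29. NPAT, the coactivator of histone genes, was at 4.75 and 3.62 FPKM in PC9M and at 5.82 and 5.43 in H358. In PC9 it was at 3.30 and 1.79 FPKM, a ratio of -0.63, against -0.31 in PC9M and -0.09 in H358. CSTF2, a polyadenylation factor, had a ratio of -1.22 in PC9. Of 11 further histone variants found in the tables, such as the centromeric CENPA, between 2 and 4 passed in a table and none was 2-fold apart.

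**Figure D5:**
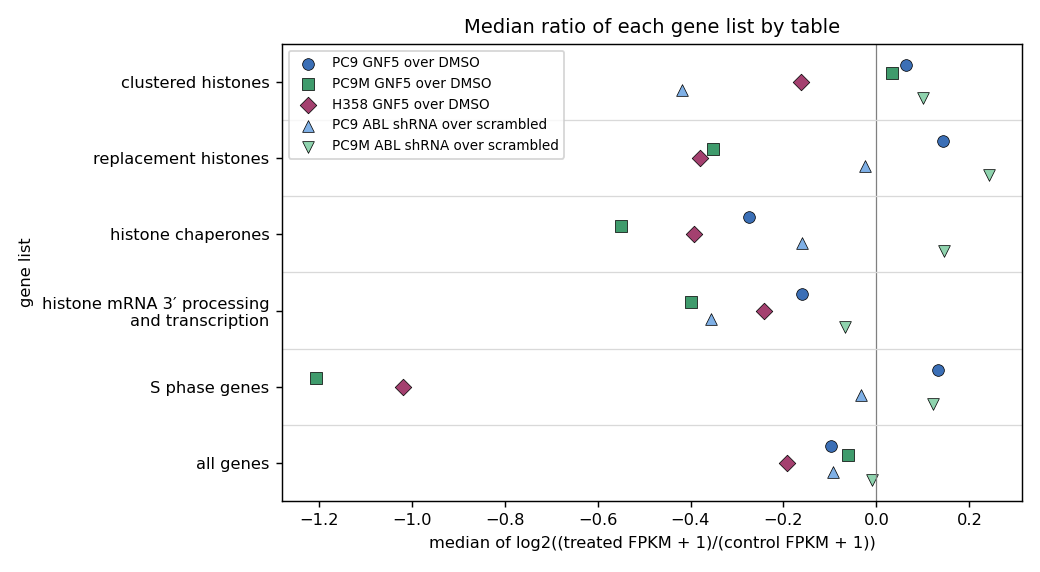
Median ratio of the clustered and replacement histone genes, the 3 lists of related genes and all genes in each of the 5 tables. With GNF5 in PC9M and H358 the S phase median lies at -1.21 and -1.02, while the clustered median lies at 0.03 and -0.16.

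Control cultures of 1 line differed from each other for these genes as well. With ratios centred on the median of all genes, the scrambled control over the DMSO control had a clustered median of -0.13 in PC9, where 34 passed, 5 above 2-fold and 6 below it, beside 7.28% and 10.3% of all 12161 genes. HIST1H2AC was at 38.7 FPKM with DMSO and 10.7 with the scrambled shRNA in PC9, and HIST2H2BE at 3.55 and 0.788. In the opposite direction HIST1H4C was at 1.84 and 7.64 FPKM, and H2AFX at 113 and 421. S phase genes had a median of 2.40 there, with 19 of 19 at least 2-fold higher, and the replacement median was 0.63. In PC9M 33 of 43 clustered genes were higher with the scrambled shRNA, with a median of 0.53, and the S phase median was 0.23. Of all 12265 genes 6132 were higher, a share set by the centring. All 43 clustered genes reached 1 FPKM with the scrambled shRNA, while 23 clustered genes did with DMSO. For those that passed through the scrambled library alone the limit fixes the direction. These libraries come from different tables and different culture conditions, which cannot be told apart.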

How the data were processed

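The submitters' processing notes name TopHat, Cuffdiff and the build hg18; versions and the annotation are not given in the sources used here. The authors deposited 5 tables, each with FPKM for a control and a treated library, and with p-values and q-values for that pair, per the file headers. Entries whose symbol had become a date, 28 in each, were left out, as was 1 gene with no estimate. Read depth is unknown, so no counting interval is given. From the steps between low FPKM values the treated library was 0.988 to 1.20 times as deep as its control, with a shallow peak in PC9.

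Ratios used a pseudocount of 1. The ratios of all genes with at least 1 FPKM in 2 libraries went into limma 3.58.1, run in R 4.3.3 with trend and 3 degrees of freedom left, after the script was tested on simulated data. Nothing in the labels says that cultures of 1 line were independent, so p-values measure the spread between these tables. PC9 and PC9M each gave a GNF5 and an shRNA ratio, a pairing by cell line that was tried as a block. Genes named are the 8 replacement genes, the clustered genes past 1 FPKM in all tables, up to 5 at each end of a table past 2-fold, and the lowest limma p-values; other genes named for their value in H358, in the controls or at the end of a range were chosen after values were seen. The members and gene lists were chosen with earlier results of these data known. Hairpins and promoter windows were read from GENCODE v29 and RefSeq and describe GRCh38, not the authors' build.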

Additional observations from a re-analysis of the deposited data

How the results depend on the processing

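The count of histone genes at an adjusted p under 0.05 in limma was 0 in all 3 contrasts under every alternative, namely pseudocounts of 0.1 and 5, no filter or a filter at 5 FPKM, centred ratios, an untrended prior, and each of the 5 ratios left out in turn, where the count also ranged from 0 to 0. Where a contrast was left with 1 shRNA ratio, that ratio was assumed to vary like the others. At an unadjusted p under 0.05 the 5 genes for GNF5 became 10 without PC9, and the 3 for the shRNAs became 8 without PC9M. The clustered median moved to 1.19 in PC9 and 0.48 in PC9M with GNF5 when at least 5 FPKM was required, which left 8 genes in each. In each line some of the 8 reached 5 FPKM with GNF5 alone, which fixes their direction. Centring moved the clustered median to 0.0303 in H358, where all genes lay at -0.19. The cause was not tested further. The clustered median with the shRNAs in PC9M was -0.25 at 5 FPKM, against 0.10, and the replacement median in PC9 was 0.07 when centred, against -0.03. Of 211 ratios of histone genes, a pseudocount of 0.1 put 26 more past 2-fold and centring took 4 below it, among them HIST1H2AD, HIST2H4B and HIST4H4 with the PC9 shRNAs, where 3 of 6 then stayed 2-fold lower, and put 2 past it. With a pseudocount of 5 1 clustered gene was left at least 2-fold higher in PC9 with GNF5, against 8, and 0 were 2-fold lower with the shRNAs, against 6. At 0.1 these were 11 higher and 4 lower with GNF5, and 11 lower and 3 higher with the shRNAs. HIST2H3A and HIST2H3C, whose rows are identical, were each counted in the medians given here. With the replicate block by line, an alternative added after seeing the data, 0 histone genes passed for GNF5 minus shRNA. The 2 ratios of a line deviated from their means with a correlation of -0.0751 in PC9 and -0.151 in PC9M. Read depth is unknown, so what it limits cannot be stated.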
